A study of Pimephales promelas with 80 samples.

Results

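Single larvae of the fathead minnow exposed to 6PPD-quinone (6PPD-Q) at 8.78 mg/L were set against larvae exposed to its parent compound 6PPD at 0.848 mg/L. The 10 fish, 5 of each kind, were chosen by chemical and dose from 80 in all, with no use of measured values. The other fish comprised 10 unexposed controls, 25 fish at the other 6PPD doses and 35 at the other 6PPD-Q doses. All were whole unfed larvae of one laboratory culture, kept for a day in sealed wells of a plate, 1 fish per library, and exposures were made in water with DMSO as solvent. Offspring of multiple crosses were mixed and then assigned to wells at random, so siblings cannot be traced. The labels give the larvae as 5 days post hatch and, elsewhere, as collected 5 days after fertilization, and do not say whether control wells held DMSO. All 10 fish came from the plate labelled C, while control replicates 1 and 2 came from the plate labelled A. By well label, the 6PPD fish lay in rows A, C and D and the 6PPD-Q fish in rows A, D, F, G and H. Position on the plate thus differed between the groups, and its effect was not tested. The larvae of the 6PPD-Q group had the highest dose of that series, and those of the 6PPD group the second highest dose of theirs. The doses differed 10.4-fold by mass, so the contrast holds a change of chemical and a change of dose, which cannot be told apart in these 10 fish.

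6PPD is an antioxidant added to tire rubber, where it protects the polymer by reacting with ozone, and 6PPD-Q is one product of that reaction, with a quinone as its central ring. The quinone is known for its acute toxicity to coho salmon, while several other fish, the fathead minnow among them, tolerate far more of it. The study asked what each chemical does to gene expression in the larvae and what can be learned from it of the quinone's mode of action. The gene identifiers of the count table are not paired with names in the sources used here, so genes are described by identifier or rank and by their levels, with no function. For the same reason the larvae could not be checked against marker genes. In whole larvae, fewer cells of a type and less RNA per cell cannot be told apart.

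The 6PPD-Q libraries held 17.2 to 20.8 M counts in genes and the 6PPD libraries 19.4 to 20.9 M. Genes detected numbered 22110 to 22871 in 6PPD-Q fish and 22798 to 22839 in 6PPD fish. None of 8 library measures differed between the 5 and 5 fish by a two-sided exact permutation test, which cannot go below p = 0.00794 here. The lowest p was 0.111 (adjusted 0.487 over the 8), for reads outside any gene, at 11.4% ± 1.00 in 6PPD-Q fish and 10.4% ± 0.60 in 6PPD fish (SD, n = 5 each). Without 6PPD-Q replicate 4 that difference was 1.29 percentage points, with an exact permutation p of 0.0476. Replicate 5 of the 6PPD-Q fish stood apart, with the fewest genes detected and the lowest scaling factor (0.884) of all 80 libraries. Its share of reads in genes (74.3%) was also the lowest of the 80.

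Of 21599 genes tested, 133 passed an adjusted p of 0.05 (0.616%), and such genes are named called here. An unadjusted p under 0.05 was reached by 2507 genes, so differences that missed the adjusted threshold are not shown to be absent. In 6PPD-Q larvae 43 were higher (0.199% of genes tested) and 90 were lower (0.417%) than in 6PPD larvae. The called genes that were higher differed by 0.34 to 4.54 on the log2 scale, with a median of 0.86, and 11 differed by more than 1. Those that were lower differed by 0.29 to 2.89 in size, with a median of 0.80, and 25 differed by more than 1. The median difference over all genes tested was 0.01. In 92 of the 133 genes the 5 and 5 fish did not overlap, 24 of them higher and 68 lower with 6PPD-Q. Over all genes, every 6PPD-Q fish lay above every 6PPD fish in 0.931% and below in 1.14%.

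The test was edgeR's quasi-likelihood test, with Benjamini-Hochberg adjustment over all genes tested, in 1 fit of all 80 libraries. It is the source of every adjusted p of a single gene given here for which no other fit or left-out fish is named, and levels are counts per M of scaled library size (CPM, with M as the prefix mega). The count of calls depended on the libraries in the fit: the same test on the 10 fish alone called 9 genes, 1 higher and 8 lower with 6PPD-Q, of which 7 were among the 133. Without 6PPD replicate 2 the pooled test called 68 genes, without 6PPD-Q replicate 5 it called 71, without 6PPD replicate 3 it called 83, and without 6PPD-Q replicate 1 it called 86.

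**Figure D1:**
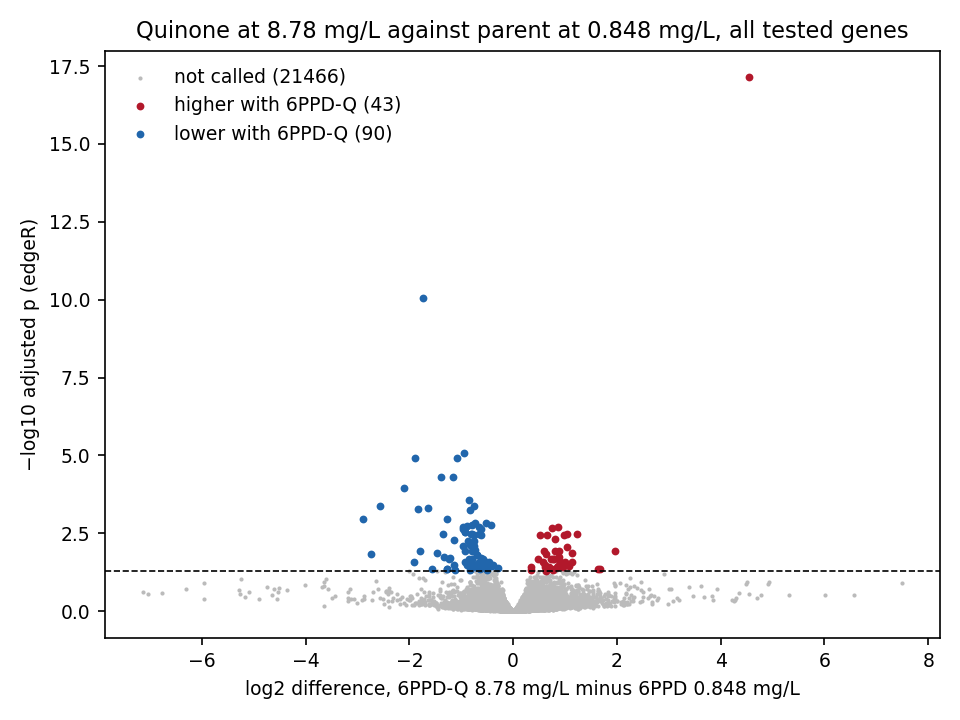
Log2 difference of each of 21599 genes (x axis, 6PPD-Q at 8.78 mg/L minus 6PPD at 0.848 mg/L) against −log10 of its adjusted p (y axis), with the threshold of 0.05 as a dashed line. Red points are the 43 called genes higher with 6PPD-Q and blue points the 90 lower, and 1 gene at 4.54 stands apart from the rest.

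Among the 43 called genes that were higher in 6PPD-Q larvae, FMg025031 had the largest difference and the lowest adjusted p. It was at 1379, 843, 1308, 791 and 1126 CPM in the 6PPD-Q fish, against 50.5, 35.3, 45.5, 48.3 and 54.1 CPM in the 6PPD fish. The lowest 6PPD-Q fish thus lay far above the highest 6PPD fish. The means were 1089 ± 266 and 46.7 ± 7.11 CPM (SD, n = 5 each), a log2 difference of 4.54 ± 0.32 (SE, 95% interval 3.90 to 5.18, adjusted p = 7.36e-18), which is 23.3-fold. Controls were at 42.2 to 74.9 CPM, with a mean of 57.2 ± 10.7 (SD, n = 10). The gene was 4.25 ± 0.24 higher on the log2 scale in 6PPD-Q larvae than in controls (adjusted p = 3.33e-23). In 6PPD larvae it was at -0.29 ± 0.24 relative to controls (adjusted p = 0.889). It was called in each of the 22 alternative analyses, with a difference of 4.44 to 4.64.

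Across the 6PPD-Q doses, FMg025031 was above every control in all 5 fish at each dose from 0.277 mg/L. At 0.0277 and at 0.0878 mg/L it was above every control in 2 of 5 fish, and at 0.0878 mg/L below every control in 1. Its means were 57.8 ± 13.0 CPM at 0.00277 mg/L, 58.8 ± 13.3 at 0.00878, 72.1 ± 17.0 at 0.0277, 64.8 ± 24.6 at 0.0878, 413 ± 118 at 0.277, 523 ± 280 at 0.878, 483 ± 82.7 at 2.77 and 1089 ± 266 at 8.78 mg/L (SD, n = 5 each). The fish at 0.277, 0.878 and 2.77 mg/L overlapped, with ranges of 260 to 570, 86.6 to 843 and 394 to 589 CPM. The step of the quinone from 0.878 to 8.78 mg/L was 1.06 ± 0.28 on the log2 scale (95% interval 0.50 to 1.62) and missed the threshold (adjusted p = 0.11). Over the 6PPD doses the gene's means lay between 54.6 and 61.1 CPM up to 0.268 mg/L, and at 2.68 mg/L it was lower than in controls, at 24.2 ± 12.7 CPM (log2 difference -1.24 ± 0.26, adjusted p = 0.000138).

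FMg010600 had rank 2 among the genes higher with 6PPD-Q, by the size of the difference among called genes with no overlap and a mean of at least 5 CPM over the 10 fish. It was at 86.9, 49.9, 90.05, 42.1 and 32.6 CPM in 6PPD-Q fish, against 15.5, 6.52, 13.4, 24.2 and 17.3 CPM in 6PPD fish. Controls spanned 18.8 to 60.9 CPM, a range that held 3 of the 5 6PPD-Q fish, and 4 of the 5 6PPD fish lay below it. The log2 difference was 1.97 ± 0.44 (SE, 95% interval 1.09 to 2.86, adjusted p = 0.012). Against controls the gene was at 0.52 ± 0.36 in 6PPD-Q larvae (adjusted p = 0.544) and at -1.45 ± 0.40 in 6PPD larvae (adjusted p = 0.0547), so neither arm alone passed the test. In other fish, at 6PPD 2.68 mg/L, FMg010600 was at -2.10 ± 0.42 relative to controls (adjusted p = 6.72e-05), with all 5 below the lowest control. The call of the contrast was lost without 6PPD-Q replicate 1 (adjusted p = 0.0502) and without 6PPD replicate 2 (adjusted p = 0.0739), and in the fit of the 10 fish alone (adjusted p = 0.0864).

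The gene of rank 3 among those higher was above the 6PPD larvae but not above the controls. It was at 59.9, 49.5, 59.0, 85.5 and 60.2 CPM in 6PPD-Q fish, against 19.6, 23.0, 25.8, 46.3 and 27.4 CPM in 6PPD fish, and at 78.4 ± 12.7 CPM in controls (SD, n = 10). The log2 difference was 1.14 ± 0.26 (adjusted p = 0.0137). Every 6PPD fish of this dose lay below the lowest control, and the gene was lower than in controls by -1.46 ± 0.24 (log2 difference, adjusted p = 1.71e-05). At 6PPD 2.68 mg/L it stood at 2.73 ± 1.90 CPM, a log2 difference of -4.84 ± 0.30 from controls (adjusted p = 4.71e-22). Over the 7 lower 6PPD-Q doses its means lay between 73.4 and 86.9 CPM. The call was lost without 6PPD replicate 1 (adjusted p = 0.0561), without 6PPD replicate 2 (adjusted p = 0.0674) and in the fit of the 10 fish alone.

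The genes of ranks 4 to 10 among those higher differed by 0.84 to 1.135 on the log2 scale, with adjusted p from 0.00367 to 0.0373. All 7 lost their call in the fit of the 10 fish alone, and all but that of rank 7 also lost it without a single fish, in 3 to 7 of the 10 cases. Of the 7, 1 was called higher (0.259% of all genes) and none lower (0.0417%) than in controls in 6PPD-Q larvae. In 6PPD larvae 1 was called lower than in controls (0.13% of all genes). The gene of rank 5 was the one called higher with 6PPD-Q. It was at 8.64 ± 2.04 CPM in 6PPD-Q fish, 4.07 ± 1.19 CPM in 6PPD fish (SD, n = 5 each) and 3.66 ± 0.88 CPM in controls (n = 10), with a log2 difference of 1.24 ± 0.23 from controls (adjusted p = 0.00108).

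**Figure D2:**
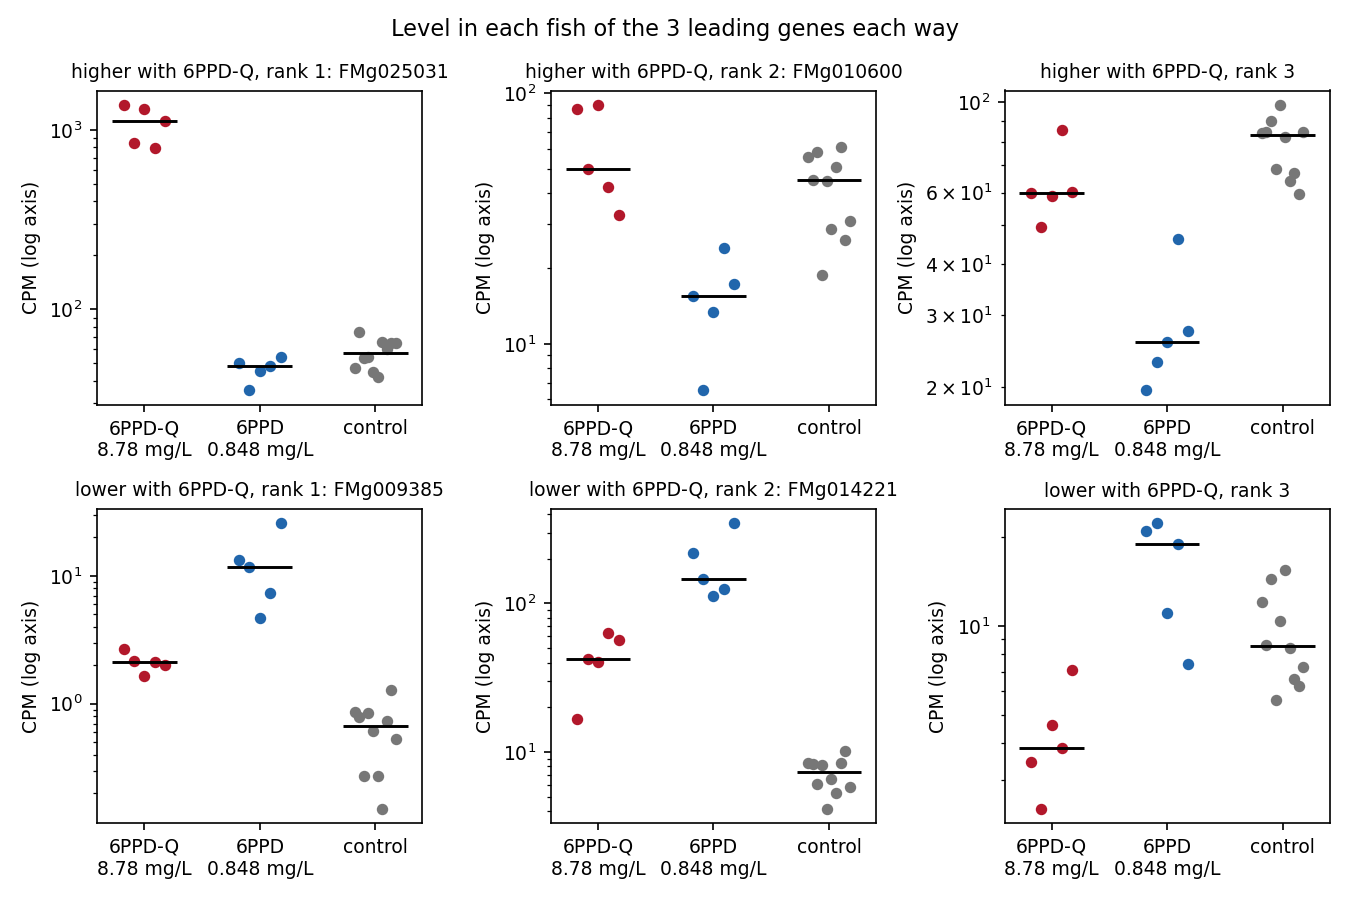
Level in each fish (CPM, log axis) of the 3 leading genes higher with 6PPD-Q (upper row) and the 3 leading genes lower (lower row), in 6PPD-Q fish at 8.78 mg/L (red), 6PPD fish at 0.848 mg/L (blue) and controls (grey), with the group median as a bar. FMg025031 is high in the 5 6PPD-Q fish alone, while in FMg009385 and FMg014221 the 6PPD fish are highest and the 6PPD-Q fish lie between them and the controls.

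FMg009385 led the genes lower in 6PPD-Q larvae that had no overlap and a mean of at least 5 CPM over the 10 fish, and it was above the controls in both groups. It was at 2.701, 2.15, 1.65, 2.11 and 2.00 CPM in 6PPD-Q fish, against 13.3, 11.7, 4.70, 7.33 and 25.7 CPM in 6PPD fish. Controls were at 0.151 to 1.29 CPM, below every fish of either group. The log2 difference was -2.56 ± 0.44 (SE, 95% interval -3.45 to -1.68, adjusted p = 0.000407), or 5.91-fold lower. Against controls the gene was at 1.72 ± 0.39 in 6PPD-Q larvae (adjusted p = 0.0242) and at 4.28 ± 0.38 in 6PPD larvae (adjusted p = 6.15e-14). The call of the contrast held without any 1 fish (adjusted p of at most 0.00809) and was lost in the fit of the 10 fish alone (adjusted p = 0.0539).

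FMg014221 had rank 2 among the lower genes, with the same order of groups at a higher level. It was at 16.8, 42.4, 40.5, 63.3 and 56.8 CPM in 6PPD-Q fish, against 219, 145, 111, 125 and 347 CPM in 6PPD fish, and at 4.14 to 10.16 CPM in controls. The 3 groups did not overlap. The log2 difference was -2.11 ± 0.34 (95% interval -2.79 to -1.42, adjusted p = 0.000115). Relative to controls it was 2.62 ± 0.28 in 6PPD-Q larvae (adjusted p = 1.02e-09) and 4.73 ± 0.29 in 6PPD larvae (adjusted p = 6.64e-21). This call too held without any 1 fish and was lost in the fit of the 10 fish alone (adjusted p = 0.0864). Its means over the 6PPD-Q doses were 8.46 ± 2.25, 10.7 ± 7.53, 5.89 ± 1.93, 5.12 ± 1.30, 11.9 ± 4.50, 11.8 ± 7.01, 15.4 ± 11.4 and 44.0 ± 17.97 CPM from the lowest dose to the highest (SD, n = 5 each). In 6PPD larvae its means were 7.77 ± 2.23, 189 ± 97.2 and 365 ± 77.9 CPM at doses of 0.268, 0.848 and 2.68 mg/L.

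The gene of rank 5 among those lower was near the level of the controls in 6PPD-Q larvae. It was at 104, 81.0, 92.3, 79.7 and 91.0 CPM in 6PPD-Q fish, against 394, 315, 270.1, 193 and 309.8 CPM in 6PPD fish, and at 75.8 ± 10.7 CPM in controls (SD, n = 10). The log2 difference was -1.73 ± 0.18 (95% interval -2.08 to -1.38, adjusted p = 9.15e-11), and the gene was called in all 22 alternative analyses, the fit of the 10 fish alone included (adjusted p = 0.0038). It differed from controls by 0.24 ± 0.15 in 6PPD-Q larvae (95% interval -0.05 to 0.53, adjusted p = 0.484) and by 1.97 ± 0.14 in 6PPD larvae (adjusted p = 6.61e-18).

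The gene of rank 4 was at 70.8, 55.9, 106, 58.7 and 66.5 CPM in 6PPD-Q fish, against 217, 206, 234, 182 and 493 CPM in 6PPD fish. Controls were at 20.9 to 39.2 CPM, so that the 6PPD-Q fish again lay between the other groups. Its log2 difference was -1.90 ± 0.28 (adjusted p = 1.23e-05), and without 6PPD replicate 5, the highest fish, it was -1.55 and still called. In the gene of rank 3 the order was another. It was at 4.29 ± 1.76 CPM in 6PPD-Q fish and 16.1 ± 6.51 CPM in 6PPD fish (SD, n = 5 each), on either side of the controls at 9.51 ± 3.46 CPM (n = 10). Its log2 difference was -1.92 ± 0.47 (adjusted p = 0.027), it differed from controls in neither group (adjusted p = 0.205 in 6PPD-Q and 0.601 in 6PPD larvae), and the call was lost without 1 fish in 7 of the 10 cases, with an adjusted p of at most 0.0924. The genes of ranks 6 to 10 had log2 differences of -1.63 to -1.27, and those of ranks 7 and 10 lost their call without a single fish in 2 and 7 of the 10 cases. Of the 10 leading lower genes, 9 were called higher than in controls in 6PPD larvae (0.75% of all genes) and 4 in 6PPD-Q larvae (0.259%). The same exposed fish ranked these genes, so the counts follow in part from the choice.

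Set against the controls, the 6PPD group stood apart in more of the lower genes than the 6PPD-Q group did. In the higher genes the groups stood apart in similar numbers of genes, to opposite sides. Of the 43 genes higher with 6PPD-Q, the control mean lay between the groups in 39, above both in 2 and below both in 2. Of the 90 genes lower with 6PPD-Q, the 6PPD mean was the highest in all, with the 6PPD-Q mean between it and the controls in 39 and below the controls in 51. Over all 21599 genes, these orders held in 21.1% (6PPD-Q above controls above 6PPD), 12.3% (6PPD above 6PPD-Q above controls) and 19.4% (6PPD above controls above 6PPD-Q). The other orders held in 17.4% (6PPD-Q above 6PPD above controls), 12.8% (controls above 6PPD-Q above 6PPD) and 17% (controls above 6PPD above 6PPD-Q). The choice of genes fixed which of 6PPD-Q and 6PPD was higher. Shares over all genes are therefore not what that choice alone would give. In 44 of the 90 lower genes every 6PPD fish lay above the highest of the 10 controls (0.727% of all genes), and in 7 every 6PPD-Q fish did (0.245%). In 2 of the 90 every 6PPD-Q fish lay below the lowest control (0.125%). Of the 43 higher genes, every 6PPD-Q fish lay above the highest control in 5, and every 6PPD fish below the lowest control in 4 (0.162% of all genes). The same 6PPD-Q and 6PPD fish chose the genes, which favours such separation, so these counts are a description.

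Tested against the controls, 6PPD-Q larvae had 65 called genes (0.301%), 56 higher (0.259%) and 9 lower (0.0417%), and 6PPD larvae had 190 (0.88%), 162 higher (0.75%) and 28 lower (0.13%). These tests share fish with the contrast and controls with each other, so their values for the called genes are a description. The 43 higher genes had a median of 0.43 relative to controls in 6PPD-Q larvae, with 8 called higher, and of -0.39 in 6PPD larvae, with 7 called lower. The 90 lower genes had a median of -0.11 in 6PPD-Q larvae, with 7 called higher and 2 lower, and of 0.72 in 6PPD larvae, with 58 called higher. The median over all genes was within 0.01 of 0 in both. The 65 calls depended on single fish: without 6PPD-Q replicates 1, 2, 4 and 5 in turn there were 40, 302, 268 and 27.

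**Figure D3:**
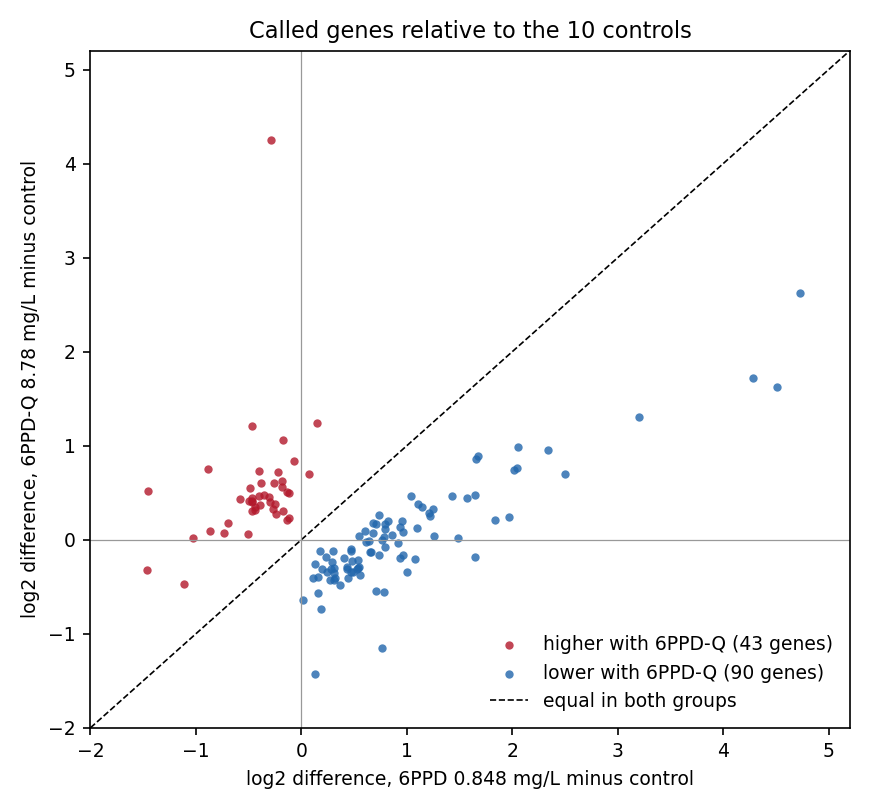
Log2 difference from the 10 controls of the 133 called genes, in 6PPD larvae at 0.848 mg/L (x axis) and in 6PPD-Q larvae at 8.78 mg/L (y axis). The 43 genes higher with 6PPD-Q (red) lie above the dashed line of equality, mostly left of 0 and above 0, and the 90 lower genes (blue) lie below it, all right of 0, with a median of 0.72 on the x axis and -0.11 on the y axis.

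Together the called genes made up a small part of the RNA. The 43 higher genes took 0.384% ± 0.037 of counts in 6PPD-Q fish and 0.170% ± 0.014 in 6PPD fish (SD, n = 5 each), with 0.219% ± 0.019 in controls (n = 10). A large part of the excess in 6PPD-Q fish lay in FMg025031 alone, with means of 1089, 46.7 and 57.2 CPM in these groups. The 90 lower genes took 0.340% ± 0.044 in 6PPD-Q fish and 0.668% ± 0.086 in 6PPD fish, with 0.334% ± 0.015 in controls. The difference between the groups is fixed by the choice of genes. The levels in controls do not enter the contrast, but the controls entered the shared fit, and so its filter and pooled spread. For the lower genes, the 6PPD-Q fish spanned 0.272% to 0.384% and thus included the range of the controls, 0.308% to 0.355%.

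The contrast can be written as the sum of 2 steps on the log2 scale. The first goes from 6PPD at 0.848 mg/L to 6PPD-Q at 0.878 mg/L, doses that differ by 3.57% by mass. The second goes from there to 6PPD-Q at 8.78 mg/L. Between chemicals at these near doses, 82 genes were called (0.38%), 11 higher (0.0509%) and 71 lower (0.329%) with 6PPD-Q. The step of the quinone between its doses gave 9 called genes (0.0417%), all higher at 8.78 mg/L. For lower genes at that step edgeR's test called 0, limma 1 and DESeq2 17, and 2427 genes in either direction had an unadjusted p under 0.05. The count of 9 calls in either direction moved with single fish: without 0.878 mg/L replicates 2, 3, 4 and 5 in turn it was 0, 4, 5 and 3, and without 8.78 mg/L replicates 2, 3 and 4 it was 26, 1 and 57.

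Each step shares 5 fish with the contrast that chose the genes, so the values of the called genes in it are a description whose direction is partly fixed by the choice. For the 90 lower genes, the median was -0.64 between chemicals at the near doses, with 37 called lower, and -0.18 for the dose step, with 3 called higher and none lower by edgeR. For the 43 higher genes, the medians were 0.33 between chemicals, with 6 called higher, and 0.44 for the dose step, with 3 called higher. FMg025031 differed by 3.48 ± 0.31 between chemicals at the near doses (adjusted p = 1.09e-13). FMg014221 moved in opposite directions in the steps, by -3.99 ± 0.37 between chemicals (adjusted p = 1.24e-12) and by 1.89 ± 0.35 for the dose step (adjusted p = 0.0116). The gene of rank 5 among those lower differed by -2.09 ± 0.18 between chemicals (adjusted p = 7.03e-14) and by 0.37 ± 0.17 for the dose step (95% interval 0.02 to 0.71, adjusted p = 0.407).

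The called genes were then read in 10 fish whose levels do not enter the contrast. Of these, 5 were at 6PPD-Q 2.77 mg/L and 5 at 6PPD 2.68 mg/L, doses that differ by 3.31% by mass. These fish did enter the shared fit, and so the filter and the pooled spread by which genes were called. The groups differed in many genes: 4265 were called (19.7%), 8.7% of all genes higher and 11% lower with 6PPD-Q. With upper-quartile scaling 2621 were called higher and 1978 lower, so the balance of directions there turns with the scaling, but 71 of the 90 lower genes were still called lower. Of the 90 genes lower in the contrast, 87 were below 0 in the other fish (49.6% of all genes were), 73 were called lower and 1 higher, and the median was -0.93. Of the 43 higher genes, 38 were above 0 (50.4% of all genes), 17 were called higher and 1 lower, and the median was 0.34. The median over all genes was 0.00.

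**Figure D4:**
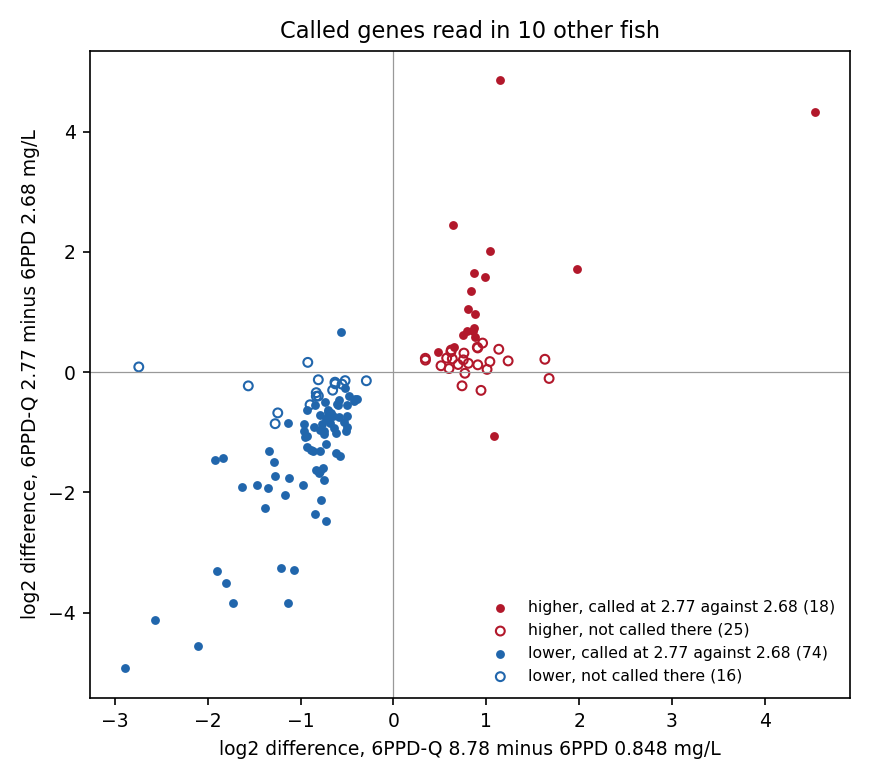
Log2 difference of the 133 called genes in the contrast (x axis, 6PPD-Q 8.78 minus 6PPD 0.848 mg/L) and in 10 other fish (y axis, 6PPD-Q 2.77 minus 6PPD 2.68 mg/L). Red points are the 43 higher and blue points the 90 lower genes, filled where they were called in the other fish (18 and 74 genes, in either direction), and 87 of the 90 lower and 38 of the 43 higher genes keep their sign.

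The same leading genes differed in these fish. FMg025031 was 4.32 ± 0.32 higher with 6PPD-Q (adjusted p = 7.28e-18), at 483 ± 82.7 CPM in 6PPD-Q fish and 24.2 ± 12.7 CPM in 6PPD fish. FMg010600 was higher by 1.72 ± 0.45 (adjusted p = 0.00305), at 32.2 ± 8.65 and 9.84 ± 5.71 CPM in 6PPD-Q and 6PPD fish. FMg009385 differed by -4.12 ± 0.47 (adjusted p = 1.91e-10), with 1.91 ± 2.02 CPM in 6PPD-Q fish and 33.7 ± 12.5 CPM in 6PPD fish, and FMg014221 by -4.56 ± 0.38 (adjusted p = 2.48e-15). In the gene of rank 3 among those higher the log2 difference was 4.86 ± 0.31 there (adjusted p = 7.64e-21), against 1.14 in the contrast. Rank 5 among those higher went the other way, with -1.06 ± 0.28 (adjusted p = 0.00309). Of the 10 leading genes each way, 7 of the higher were called higher (8.7% of all genes) and 9 of the lower called lower (11%).

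The larvae at the highest 6PPD dose, 2.68 mg/L, also allow the contrast to be read for genes listed by the levels of other fish, though by the same fit with its shared filter and spread. At that dose 2674 genes rose relative to controls (12.4% of all tested) and 2100 fell (9.72%). With upper-quartile scaling 2198 rose and 2788 fell. In the contrast, the genes that rose had a median of -0.11, and 69.3% of them were below 0, against 48.8% of all genes. Of them 80 were called lower with 6PPD-Q (2.99% of the list, against 0.417% of all genes) and 1 higher (0.0374%, against 0.199%). The 80 were 88.9% of the 90 lower genes. The genes that fell had a median of 0.09, with 65.2% above 0 against 51.2% of all genes. Of these, 14 were called higher with 6PPD-Q (0.667% of the list, against 0.199% of all genes) and 1 lower (0.0476%, against 0.417%). The 14 were 32.6% of the 43 higher genes. The 16825 genes that were not called at 2.68 mg/L had a median of 0.02. They held 28 of the higher genes (0.166% of the list, near the 0.199% of all genes) and 9 of the lower (0.0535%, against 0.417%). The lists were shorter without 6PPD 2.68 mg/L replicate 1, a fish of plate A, which left 1824 genes that rose and 1327 that fell.

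To follow the called genes over all doses, each fish was given the median, over the 43 or the 90 genes, of its log2 level minus the mean log2 level of the controls. For the 43 higher genes this was 0.37 ± 0.14 in the 6PPD-Q fish at 8.78 mg/L and -0.34 ± 0.10 in the 6PPD fish at 0.848 mg/L (SD, n = 5 each), and the direction between these groups follows from the choice. In the other fish, the 6PPD-Q groups from 0.00277 to 2.77 mg/L had means of -0.02 to 0.08, and 6PPD fish at 2.68 mg/L were at -0.29 ± 0.09, with 4 of 5 below the lowest control. For the 90 lower genes the 6PPD-Q fish at 8.78 mg/L were at -0.07 ± 0.14 and the 6PPD fish at 0.848 mg/L at 0.69 ± 0.08. The 6PPD fish at 2.68 mg/L were higher still, at 1.00 ± 0.11, and all 5 lay above the highest control, while the 6PPD groups from 0.00848 to 0.268 mg/L had means of -0.02 to 0.09. No 6PPD-Q group had a mean outside -0.07 to 0.08 for these 90 genes. Within the 6PPD-Q fish at 8.78 mg/L, replicate 5 was the highest for the 43 genes (0.56) and the lowest for the 90 (-0.27).

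**Figure D5:**
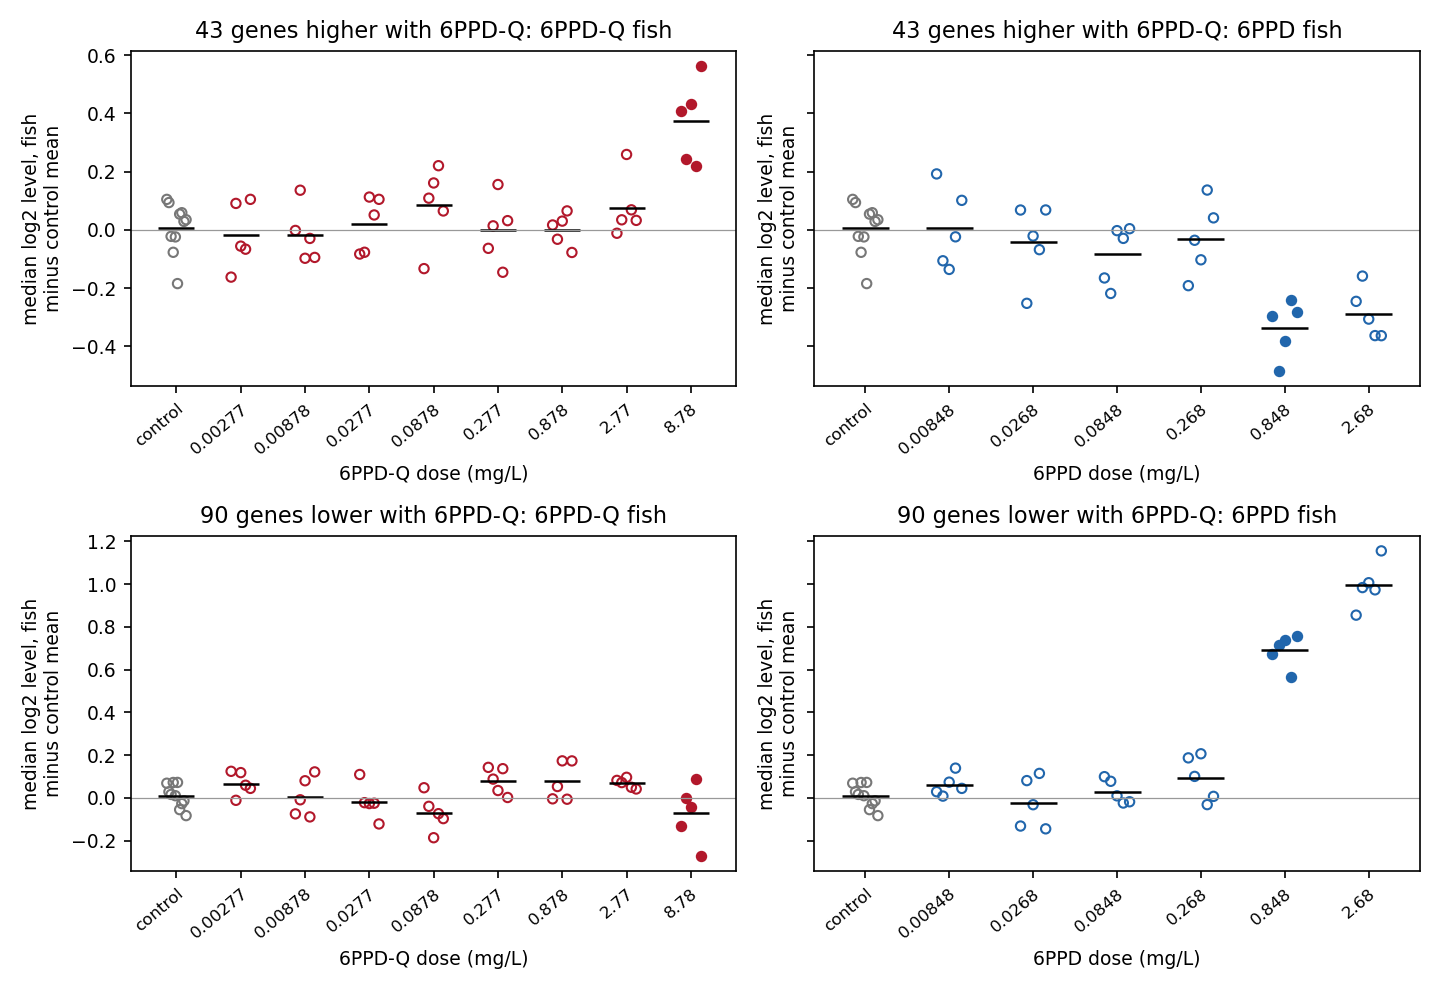
Median log2 level relative to the control mean of the 43 genes higher (upper row) and the 90 genes lower with 6PPD-Q (lower row), 1 point per fish, by dose of 6PPD-Q (left) and of 6PPD (right), with the group mean as a bar and the fish of the contrast as filled points. The 90 genes stand at 0.69 at 6PPD 0.848 mg/L and 1.00 at 2.68 mg/L and near 0 in every 6PPD-Q group. The 43 genes depart from 0 at 6PPD-Q 8.78 mg/L (0.37) and at both upper 6PPD doses. The direction between the filled groups follows from the choice of genes, and the 6PPD fish at 2.68 mg/L are outside the contrast.

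A pair of lower doses had nearly the same ratio by mass between the chemicals, 10.3 for 6PPD-Q 2.77 mg/L over 6PPD 0.268 mg/L. In these 10 fish 1 gene was called (0.00463%), and it was FMg025031, higher with 6PPD-Q by 2.98 ± 0.30 (adjusted p = 9.2e-11), at 483 ± 82.7 CPM in 6PPD-Q fish and 61.1 ± 12.8 CPM in 6PPD fish. No gene was called lower by edgeR, while DESeq2 called 3 higher and 1 lower and limma 1 higher and 0 lower. An unadjusted p under 0.05 was reached by 487 of 21599 genes in either direction. That share is below the 0.05 that would be reached if no gene differed. Of the 43 higher genes, 28 were above 0 in this pair (48.1% of all genes), with a median of 0.11. Of the 90 lower genes, 47 were below 0 (51.9% of all genes), with a median of -0.01.

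The difference between these pairs was tested directly, as the contrast at the upper pair minus that at the lower pair. It passed the test in 14 genes (0.0648%), all with a negative value, from -3.70 to -0.52 with a median of -1.72. For positive values edgeR called 0 and limma 0 genes and DESeq2 3. An unadjusted p under 0.05 was reached by 1201 of 21599 genes of either sign. That share is near the 0.05 that would be reached if no gene differed. All 14 were among the 90 lower genes, which follows in part from the contrast being one term of the difference. All 14 also rose at 6PPD 2.68 mg/L relative to controls, as did 88.9% of the 90 lower genes and 12.4% of all genes. FMg014221 had a value of -3.11 ± 0.49 (adjusted p = 0.000128) and FMg009385 one of -3.17 ± 0.63 (adjusted p = 0.0104). For FMg025031 the difference was 1.56 ± 0.39 (95% interval 0.77 to 2.35) and did not pass (adjusted p = 0.133). The count was 6 without 6PPD-Q 2.77 mg/L replicate 1 or without 6PPD 0.848 mg/L replicate 5, 8 without 6PPD 0.268 mg/L replicate 5 and 9 without 6PPD 0.848 mg/L replicate 3, and the fit of these 4 groups alone gave 1.

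The threshold of 0.05 did not part genes by size of difference, and those just outside it had larger differences at lower levels. Just inside it were a gene at 13.8 ± 3.24 CPM in 6PPD-Q fish and 24.6 ± 5.15 CPM in 6PPD fish (log2 difference -0.84, adjusted p = 0.0492) and one at 72.5 ± 6.85 and 46.7 ± 2.63 CPM in 6PPD-Q and 6PPD fish (0.63, adjusted p = 0.0499). Just outside were genes at 1.31 ± 0.85 CPM in 6PPD-Q fish and 5.21 ± 1.17 CPM in 6PPD fish (-2.004, adjusted p = 0.0505) and at 2.36 ± 0.86 and 6.54 ± 3.17 CPM (-1.47, adjusted p = 0.0513).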

How the data were processed

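Each library holds the RNA of 1 whole larva, and per the labels' protocols the kit was Lexogen SENSE for mRNA. Per the submitters' processing notes, the tools included HTSeq 0.13.5, STAR 2.7.10a, Trim Galore 0.6.6, MultiQC 1.12, edgeR, SAMtools 1.13, FastQC and bcl2fastq 2.20.0, with no role stated. Genome build, annotation and strand setting: not given in the sources used here. Unnormalized counts were deposited by the authors for 26150 genes and 80 libraries. A further 5 lines name no gene and were left out of library sizes and of all tests of genes (reads outside genes took 7.73% to 13.5% of a library). They served only for the library measures. The authors also deposited log2 values in a separate table per chemical, each scaled on its own. As the contrast spans both tables, these values were not tested. The 6PPD-Q table has no column for 2 fish, replicate 5 at 8.78 mg/L among them, whose counts were used here.

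The test was that of edgeR 4.0.16 under R 4.3.3 (TMM factors, filterByExpr by group, quasi-likelihood F test) in 1 fit of 80 libraries in 15 groups, with Benjamini-Hochberg adjustment and a threshold of 0.05. The biological coefficient of variation was 28.1%. Standard errors come from the F statistic. The log2 levels per fish use CPM + 0.5. Alternatives used limma 3.58.1 and DESeq2 1.42.0, other factors, filters and fits, stricter cutoffs on the main fit, and left out each fish. The procedure was tested on simulated data. Named genes were called, had a mean of at least 5 CPM over the 10 fish and no overlap of the 5 and 5, and were the first 10 each way by size. No identifier matched the supplied RefSeq gene table (0 of 26150, assembly fPimPro1.hap1.1), so at most 2 identifiers are printed each way and no gene list was used. The rule for the 10 fish used chemical and dose alone, yet the members and lists were chosen with earlier results of these data known. No pair of libraries within either group agreed within sampling noise (chi-square per degree of freedom of at least 22.1 over 20 pairs). Genes with near-identical copies or an overlapping partner have uncertain levels.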

Additional observations from a re-analysis of the deposited data

Results flagged for a closer look

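Among 56 sets of values of one group (named genes and library measures), 5 held a fish that stood apart from the rest of its group by Dixon's test at the 95% level, where chance sets apart about 1 in 20. Replicate 5 of the 6PPD-Q fish had 22110 genes detected and a scaling factor of 0.884, both below the other 4 fish. Among 6PPD fish at 0.848 mg/L, replicate 1 was low in the gene of rank 4 among those higher with 6PPD-Q (7.65 CPM) and high in that of rank 7 (178 CPM), and replicate 5 was high in the gene of rank 4 among those lower (493 CPM).

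The contrast differed from that at the lower pair of doses with the same ratio in 14 genes, by a test of the difference itself. Among the named genes these were FMg009385 (-3.17, adjusted p = 0.0104) and FMg014221 (-3.11, adjusted p = 0.000128), and the genes of rank 4 (-2.18, adjusted p = 0.00148), rank 5 (-1.81, adjusted p = 4.71e-06), rank 6 (-1.88, adjusted p = 0.0262) and rank 9 (-1.59, adjusted p = 0.0225) among those lower with 6PPD-Q, as differences of log2 differences. Named genes were chosen by the contrast, which is a term of this difference. The count of 14 fell to 6 without single fish, and lower still in the fit of these groups alone.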

How the results depend on the processing

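The 10 libraries held 17.2 to 20.9 M counts, so depth limits mainly genes of few counts. The fit of the 10 fish alone kept 4 of the 20 named genes. Over 22 alternatives, 337 of 440 results of named genes kept their call, 103 lost it and 0 changed sign. The threshold of 0.01 (11 calls lost) and the log2 size over 1 (4 lost) are among the 22. They are cutoffs on the main fit, where no sign could change. In the other alternatives the choice of genes without overlap between the groups also made a change of sign unlikely. The count of 0 is therefore a description. The contrast gave 133 calls with median-of-ratios factors, 129 with upper-quartile factors, 122 with no filter, 138 with a stricter filter, 159 without plate A and 130 with limma. Calls were 211 with DESeq2 (all 133 among them), 49 at a threshold of 0.01, 36 with a log2 size over 1, and 9 in the 10 fish alone. The cause of shifts between tools and fits was not tested.

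Replicate numbers were not used to pair the fish in the main fit. Within each group they run in order of plate and well, so a block on them follows that order and is no known pairing. Deviations of same-numbered fish correlated at -0.24 to 0.31, over 0.1 in 2 of 5, and 2 of 5 correlated best with their own number. So few correlations cannot exclude that same-numbered fish share some structure. With the replicate block the contrast had 108 calls in all 80 libraries and 3 in the 10 fish alone. Block fits gave 21 and 1 calls for 6PPD-Q 8.78 mg/L against controls (all libraries, groups alone) and 106 and 37 for 6PPD 0.848 mg/L against controls. They gave 3139 and 2242 for 6PPD 2.68 mg/L against controls. With the block on the groups alone, 2283 were called for 6PPD-Q 2.77 against 6PPD 2.68 mg/L (11 of the 43 higher genes among them), 0 for the quinone step and 0 for the difference of differences.

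For 6PPD-Q 8.78 mg/L against controls, 148 were called with DESeq2, 28 at 0.01 and 26 over a log2 size of 1. Over that size, 67 were called for 6PPD 0.848 mg/L against controls, 39 for 6PPD-Q 0.878 against 6PPD 0.848 mg/L (132 with DESeq2), 1135 for 6PPD-Q 2.77 against 6PPD 2.68 mg/L (2521 at 0.01) and 1115 for 6PPD 2.68 mg/L against controls (2991 at 0.01, 2958 without plate A). The quinone step had 57 calls with DESeq2, 0 at 0.01 and 0 in its groups alone. 6PPD-Q 2.77 against 6PPD 0.268 mg/L had 4 with DESeq2. The difference of differences had 31 with DESeq2, 6 at 0.01 and 1 in its groups alone.

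Leaving out 1 fish gave 68 to 169 calls in the contrast, 27 to 302 for 6PPD-Q 8.78 mg/L against controls, 131 to 187 for 6PPD 0.848 mg/L against controls, 57 to 97 for 6PPD-Q 0.878 against 6PPD 0.848 mg/L, 0 to 57 for the quinone step, 2952 to 4578 for 6PPD-Q 2.77 against 6PPD 2.68 mg/L, 3151 to 4910 for 6PPD 2.68 mg/L against controls and 6 to 20 for the difference of differences. In other fish it left 69 to 74 of the 90 and 14 to 17 of the 43 genes called in the contrast's direction.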
